A study of Mus musculus with 6 samples.

Results

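The genes described are the 5 Rel proteins of mouse (Nfkb1, Nfkb2, Rela, Relb and Rel) and 5 IκB family genes (Nfkbia, Nfkbib, Nfkbie, Nfkbiz and Bcl3). They were taken by symbol from a table of 15982 genes. All 10 were present, each in 1 row, and all 10 had a mean above 1 TPM. RNA came from primary bone marrow-derived macrophages (BMMs), macrophages grown from mouse marrow, of Ctrl mice and of Bub1 cKO mice, in which the mitotic kinase Bub1 was deleted in myeloid cells. Both groups had the same treatment: a preculture of 3 days with M-CSF, the growth factor of macrophages (20 ng/ml), followed by 2 days in which RANKL (50 ng/ml), the inducer of osteoclasts, was added to the same dose of M-CSF. Each group has 3 libraries by the labels, and these do not say whether the 3 came from separate animals, so the errors may be technical. The Cre driver, the deleted exons, the alleles carried by Ctrl mice, and the age and sex of the mice are not stated in the labels.

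Rel proteins share a DNA-binding Rel homology domain and act as dimers on κB sites. In the canonical pathway, IκB proteins hold dimers of RelA, c-Rel and p50 (made from the Nfkb1 product p105) in the cytoplasm until IκB kinase marks the IκB for destruction. In the noncanonical pathway, the kinase NIK drives processing of p100 (the Nfkb2 product) to p52, which enters the nucleus with RelB. RANKL engages both pathways in osteoclast precursors, and mice without Nfkb1 and Nfkb2 together form no osteoclasts. Several of these genes are themselves NF-κB targets, so their transcripts form feedback loops. The series title names suppression of NF-κB by Bub1 as the subject of the study, and the comparison below asks whether transcripts of the factors and their inhibitors differed between the genotypes. Dimer formation, processing, phosphorylation and nuclear entry are protein events that RNA levels do not measure.

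Because this family feeds back on itself through κB sites, the promoters of 1 member per role are shown. The windows run from 250 bases before to 50 bases after the annotated start (RefSeq, GRCm38.p6), 5′ to 3′ on the gene's strand. Capitals mark matches to the κB consensus on either strand. All promoters shown hold a match, while those of Rela and Nfkbib, in the same roles as Rel and Nfkbia, hold none. Rel, which encodes c-Rel, is at chr11:23770920-23771219 on the minus strand, Nfkb2 (the first of 3 listed starts) at chr19:46304487-46304786 on the plus strand, Nfkbia, which encodes IκBα, at chr12:55492598-55492897 on the minus strand, and Bcl3, a nuclear IκB, at chr7:19822706-19823005 on the minus strand.
Rel: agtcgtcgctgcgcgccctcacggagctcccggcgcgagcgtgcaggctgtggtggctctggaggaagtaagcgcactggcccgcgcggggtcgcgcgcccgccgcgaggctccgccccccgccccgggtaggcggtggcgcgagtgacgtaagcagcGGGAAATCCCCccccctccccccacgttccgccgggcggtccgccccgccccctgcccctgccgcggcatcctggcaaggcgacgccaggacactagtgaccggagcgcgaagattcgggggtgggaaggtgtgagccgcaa
Nfkb2: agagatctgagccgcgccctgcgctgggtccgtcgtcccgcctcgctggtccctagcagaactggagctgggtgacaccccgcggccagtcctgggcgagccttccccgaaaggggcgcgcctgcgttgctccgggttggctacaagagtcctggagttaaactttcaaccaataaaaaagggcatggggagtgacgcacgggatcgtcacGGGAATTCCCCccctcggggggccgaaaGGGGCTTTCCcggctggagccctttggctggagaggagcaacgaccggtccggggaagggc
Nfkbia: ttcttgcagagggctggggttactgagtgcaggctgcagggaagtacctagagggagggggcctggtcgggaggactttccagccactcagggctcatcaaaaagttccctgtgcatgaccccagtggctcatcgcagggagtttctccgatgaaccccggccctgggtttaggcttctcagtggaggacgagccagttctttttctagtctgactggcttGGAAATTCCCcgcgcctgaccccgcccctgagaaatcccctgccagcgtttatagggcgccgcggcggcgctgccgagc
Bcl3: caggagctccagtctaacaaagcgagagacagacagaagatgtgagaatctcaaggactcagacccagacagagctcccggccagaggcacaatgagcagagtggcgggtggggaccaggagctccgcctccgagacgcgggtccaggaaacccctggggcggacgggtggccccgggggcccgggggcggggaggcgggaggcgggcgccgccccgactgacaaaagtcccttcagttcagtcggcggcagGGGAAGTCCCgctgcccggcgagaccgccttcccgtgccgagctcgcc

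RefSeq windows were found for 7 of the 10 genes, 9 windows in all, and not for Nfkb1, Relb or Nfkbiz. The κB consensus was searched on both strands and had a match in 7 of the 9 windows, from 5 of the 7 genes. Of 32851 promoter windows of the same length over the genome, 8.46% held at least 1 match. These matches are descriptions of letters, not measured binding sites. In Nfkb2 the run at -39 reads as the consensus on both strands and overlaps a match 1 base on, and another match starts at -11, with positions counted from 0 at the first transcribed base. The windows of the other two Nfkb2 starts overlap and share 1 match, at chr19:46305705-46305714. Nfkbia has its match at -29, Rel has overlapping matches at -92 and -91, Nfkbie has one at -106, and the match of Bcl3 begins at 2, inside the transcribed part. The Rela and Nfkbib windows held no match, which says only that these letters are absent from these windows. The AP-1 motif TGANTCA, searched on both strands, was in 2 of the 9 windows, that of Nfkbie and the second of Nfkb2, and in 7.81% of all windows. It overlapped no κB match there.

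**Figure D1:**
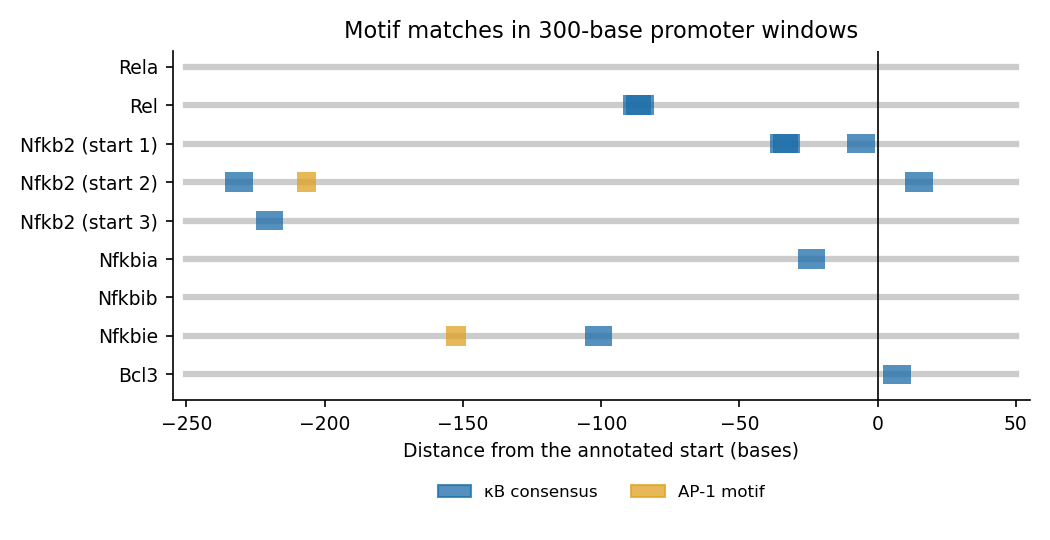
Matches to the κB consensus (blue) and to the AP-1 motif TGANTCA (orange) in 9 RefSeq promoter windows of 7 genes. The horizontal axis is the distance in bases from the annotated start, and each grey bar is 1 window. Rela and Nfkbib have no match, and Nfkb2 has κB matches in each of its 3 windows.

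The values that follow are 1 per gene and genotype, from the authors' own comparison, and are read as TPM, a value per transcript length scaled to a fixed total. No value per library was used, so neither the spread of a level nor the sequencing depth is known. The labels describe a 3' tag kit, in which a transcript gives about the same reads whatever its length, so a value divided by length reads low for long transcripts. The deposited log2 change is that of the group values with a pseudocount of 1. The statistic times its standard error (SE) gives a second estimate, here called the test's own log2 change, and 95% intervals are that estimate ± 1.96 SE.

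No difference between the genotypes was called in any of the 10 transcripts. The authors' deposited table has 0 of 10 past an adjusted p under 0.05, where 0.181% of all 15982 genes pass. At an unadjusted p under 0.05 the authors' deposited table also has 0 of 10, against 4.81% of all genes, made up of 2.35% higher and 2.46% lower in Bub1 cKO. A count of 0 among 10 genes is near these background shares. In bulk RNA, fewer cells of a type and less RNA per cell cannot be told apart. All 10 intervals of the test's own log2 change contain 0. The statistic was positive, that is higher in Bub1 cKO, in 5 members and negative in 5, beside 49.9% and 50.1% of all genes. The median log2 change of the 10 was -0.02, beside -0.01 over all genes of the table.

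**Figure D2:**
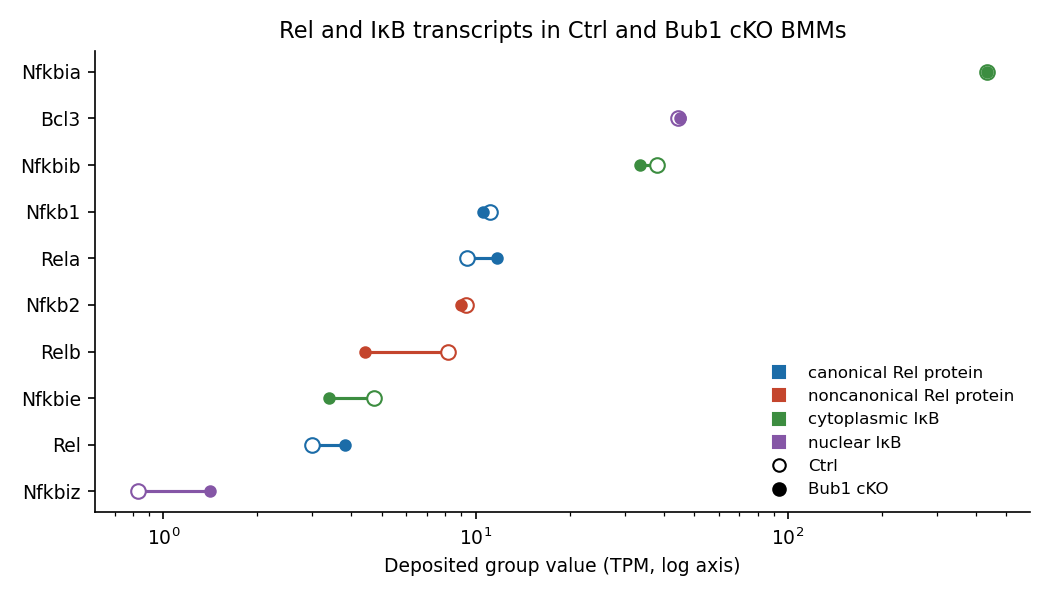
Deposited value of each gene in Ctrl (open) and Bub1 cKO (filled), in TPM on a log axis, ordered by the mean, with colours for the 4 roles. Nfkbia stands at 433 and 435 TPM, far above the rest, and Relb has the widest gap among the Rel proteins, 8.15 against 4.43 TPM.

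Levels spread over more than 2 orders of magnitude. The authors' deposited table gives mean values of 434 TPM for Nfkbia, with 2.12% of genes above it, and 1.12 TPM for Nfkbiz, with 66.8% of genes above it. Per length, the order in the mean column of the authors' deposited table was Nfkbia, Bcl3 (44.8 TPM), Nfkbib (35.8), Nfkb1 (10.9), Rela (10.6), Nfkb2 (9.16), Relb (6.29), Nfkbie (4.05), Rel (3.40) and Nfkbiz. All 5 Rel genes lay between 3.40 and 10.9 TPM, so the IκB genes held both ends of the order. Rel has the longest annotated transcript of the family, 7466 bases, against 1578 for Nfkbia. When each value was multiplied by the longest annotated transcript, an alternative chosen after the data were seen, 5 of the 10 kept their place, and Rel moved from place 9 to 7. The error of a level is not known, so neighbours in this order cannot be said to differ.

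None of the 3 canonical Rel genes was called, and each differed between the genotypes by less than 1 SE. Nfkb1 (chromosome 3, 135584655 to 135691547, minus strand, GRCm38), the gene of p105 and p50, stood at 11.2 (Ctrl) and 10.5 (Bub1 cKO) TPM in the authors' deposited table. Rela (chromosome 19, 5637483 to 5648130, plus strand), which encodes the main activating subunit p65, stood at 9.39 TPM in Ctrl against 11.7 TPM in Bub1 cKO by the authors' deposited table. For Rel (chromosome 11, 23736847 to 23770970, minus strand), the gene of the lymphoid and myeloid subunit c-Rel, the authors' deposited table gives 2.99 and 3.81 TPM. Rela and Rel were thus higher and Nfkb1 slightly lower in Bub1 cKO by group value. The authors' deposited table has log2 changes of 0.29 for Rela (SE 0.36, adjusted p = 0.985) and 0.27 for Rel (SE 0.38, adjusted p = 0.985). For Nfkb1 the log2 change in the authors' deposited table was -0.08 (SE 0.37), while its statistic was positive (0.20) and the test's own log2 change 0.08, so it has no settled direction. The 95% interval as a fold of Bub1 cKO over Ctrl ran from 0.637 to 1.74 for Nfkb1, from 0.770 to 2.03 for Rela and from 0.763 to 2.14 for Rel. Differences within these intervals could have been missed.

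Of the noncanonical Rel genes, Nfkb2 was level and Relb was lower in Bub1 cKO by group value, and neither was called. Nfkb2 (chromosome 19, 46304320 to 46312385, plus strand), the gene of p100 and p52, stood at 9.34 (Ctrl) and 8.99 (Bub1 cKO) TPM in the authors' deposited table. The log2 change of Nfkb2, -0.05 (SE 0.35, adjusted p = 1 in the authors' deposited table), was well within its error. Relb (chromosome 7, 19606217 to 19629438, minus strand), the partner of p52, stood at 8.15 TPM in the Ctrl column and 4.43 TPM in the Bub1 cKO column of the authors' deposited table, 1.84 times as high in Ctrl. That is the lowest p of the family: a log2 change of -0.75, SE 0.53, unadjusted p = 0.082 and adjusted p = 0.985 in the authors' deposited table. The test's own log2 change of Relb was -0.92, with a 95% interval from -1.96 to 0.12. Among the 10881 genes of at least 1 TPM, 9.45% had a smaller unadjusted p than Relb.

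**Figure D3:**
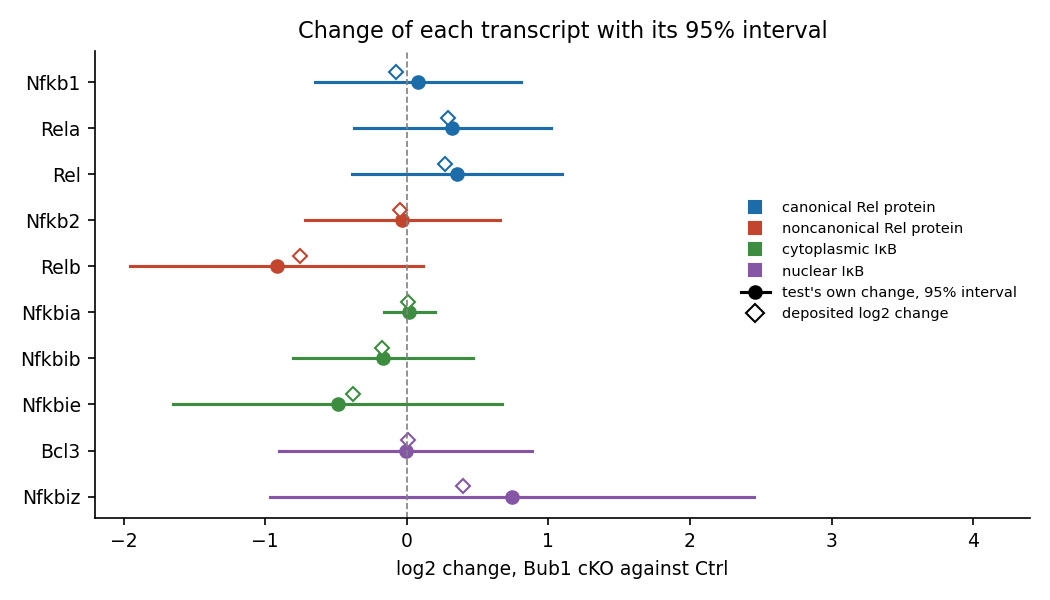
Log2 change of Bub1 cKO against Ctrl for the 10 genes, grouped by role. Filled points with lines give the test's own change with its 95% interval, and open diamonds the deposited log2 change. All 10 intervals cross 0, with that of Nfkbia the narrowest and that of Nfkbiz the widest.

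Set side by side, the 3 canonical Rel genes had positive statistics and the 2 noncanonical ones negative, beside 49.9% and 50.1% of all genes. The statistics of Nfkb1 (0.20) and Nfkb2 (-0.09) were near 0, and Nfkb1 was lower in Bub1 cKO by group value. Median log2 changes of the canonical and noncanonical genes were 0.27 and -0.40 from values in the authors' deposited table. The median over 2 noncanonical genes is the midpoint of Nfkb2 and Relb and rests on Relb, since Nfkb2 alone had -0.05. Summed TPM of the canonical genes came to 23.5 (Ctrl) and 26.1 (Bub1 cKO), and of the noncanonical genes to 17.5 and 13.4, from the authors' deposited table. Over all 5 the sums were 41.0 and 39.5 TPM in the authors' deposited table, so the total was nearly level. Relb made up 19.9% of the summed Rel TPM in Ctrl and 11.2% in Bub1 cKO, and Rela 22.9% and 29.7%, computed from the authors' deposited table. The ratio of Relb to Rela was 0.868 in Ctrl and 0.378 in Bub1 cKO, while that of Nfkb2 to Nfkb1 was 0.837 and 0.852, both from values in the authors' deposited table. With values multiplied by the longest annotated transcript, coding or not, the ratio of Relb to Rela was 1.05 (Ctrl) and 0.456 (Bub1 cKO). That of Nfkb2 to Nfkb1 was 0.776 and 0.790. On that scale the share of Relb in the Rel sum was 17.0% and 9.47%, and that of Rela 16.3% and 20.8%. The weight of Relb there, 3273 bases, is a transcript not annotated as protein-coding. The longest coding transcript of Relb has 2209 bases, against 2716 for Rela. Which of Relb and Rela is higher in Ctrl thus depends on the transcript used, and by coding length it is Rela. The test's own log2 changes of Relb and Rela differ by -1.24 and those of Nfkb2 and Nfkb1 by -0.11. Neither difference was tested, since the genes were measured in the same libraries and their covariance needs values per library.

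Most cytoplasmic IκB transcript was Nfkbia, which was level between the genotypes. Nfkbia (chromosome 12, 55489410 to 55492647, minus strand), whose protein is degraded and resynthesised within each NF-κB pulse, stood at 433 (Ctrl) and 435 (Bub1 cKO) TPM in the authors' deposited table. It had a log2 change of 0.01 (SE 0.09, adjusted p = 0.985) in the authors' deposited table. As a fold, its 95% interval ran from 0.894 to 1.15, so a rise or fall beyond these bounds lies outside it. Nfkbib (chromosome 7, 28758251 to 28767512, minus strand), the gene of IκBβ, stood at 38.1 TPM in Ctrl against 33.6 TPM in Bub1 cKO by the authors' deposited table, and Nfkbie (chromosome 17, 45555703 to 45563169, plus strand), that of IκBε, at 4.72 and 3.39 TPM. Both were lower in Bub1 cKO by less than 1 SE of the log2 change: -0.18 (SE 0.32) for Nfkbib and -0.38 (SE 0.59) for Nfkbie in the authors' deposited table, with adjusted p = 0.985 for both. For Nfkbie the 95% interval, from 0.319 to 1.60 as a fold, reaches far below 1. Nfkbia alone was 91.0% of the summed cytoplasmic IκB TPM in Ctrl and 92.2% in Bub1 cKO, and the sum was 11.6 and 12.0 times the summed Rel TPM, computed from the authors' deposited table. The multiple depends on the scale: with values multiplied by the longest transcript it was 4.95 and 5.00, and Nfkbia was 88.1% and 89.6% of the cytoplasmic sum.

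Neither nuclear IκB gene was called, and they lay far apart in level. Bcl3 (chromosome 7, 19808462 to 19822770, minus strand), which binds p50 and p52 dimers on DNA, stood at 44.6 (Ctrl) and 45.0 (Bub1 cKO) TPM in the authors' deposited table. For Bcl3 the authors' deposited table has a log2 change of 0.01 (SE 0.46, adjusted p = 1) and a statistic of the other sign (-0.02). Equal group values therefore go with a wide interval here, from 0.536 to 1.85 as a fold. Nfkbiz (chromosome 16, 55811375 to 55838899, minus strand), an inducible coactivator of secondary response genes such as Il6, stood at 0.829 TPM in Ctrl against 1.41 TPM in Bub1 cKO by the authors' deposited table. The log2 change of Nfkbiz was 0.40 (SE 0.87, adjusted p = 0.985) in the authors' deposited table, and its interval, from 0.513 to 5.48 as a fold, is the widest of the 10.

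**Figure D4:**
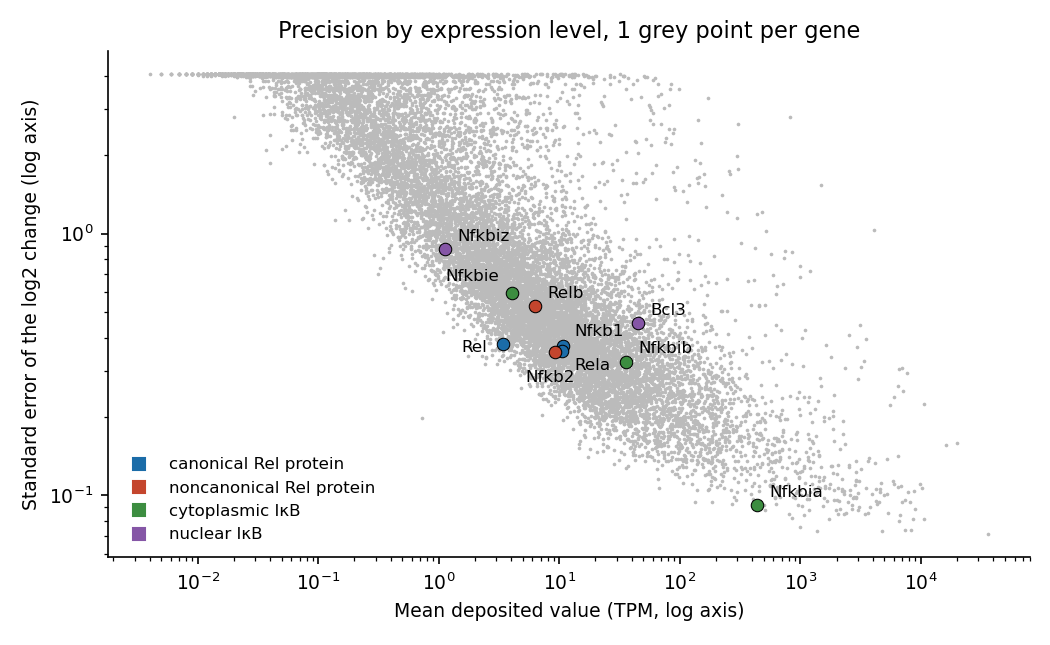
Standard error of the log2 change against the mean value in TPM, both on log axes, for all 15982 genes (grey) and the 10 members (coloured by role). Nfkbia lies at the lower edge of the cloud and Bcl3 in its upper part for its level.

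The members were measured with unequal precision for their levels. Of 187 genes whose mean lay within a factor of 1.5 of Nfkbia, 1 had a smaller SE, and their median SE was 0.166 beside 0.092 for Nfkbia in the authors' deposited table. Rel was also measured closely for its level: its SE of 0.379 was undercut by 3.10% of 2127 genes of like level, whose median was 0.692 in the authors' deposited table. Bcl3 was the opposite case, with 83.6% of 1133 genes of like level having a smaller SE and a median of 0.291 in the authors' deposited table. Across the table, SE at a like value was smaller for longer transcripts: Spearman's rho across genes was -0.76 in the 1366 genes from 1 to 2 TPM and -0.44 in the 950 from 32 to 64 TPM. Genes are not independent replicates, and these values only describe the table. The longest annotated transcripts of Bcl3 and Nfkbia are 1850 and 1578 bases. Whether libraries differed in Bcl3 more than in other genes was not examined, as values per library were not used here.

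Some member loci overlap other annotated genes (GENCODE M21, GRCm38), and whether counting used strand is not stated. Nfkb2 shares 299 bases with Psd on the opposite strand, across its 3' end, where a 3' tag library reads. Psd had 9.48 (Ctrl) and 5.89 (Bub1 cKO) TPM in the authors' deposited table, about the level of Nfkb2, so the Nfkb2 values are uncertain in this respect. Nfkbib shares 718 bases with Ccer2, not in the table, on the opposite strand at its 3' end, and 778 bases with Sirt2, also on the opposite strand, away from that end. Nfkb1 and Bcl3 overlap gene models that are not in the table. Rela, Rel, Relb, Nfkbia, Nfkbie and Nfkbiz overlap no other annotated gene.

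The rest of the pathway was described with 10 lists, chosen with earlier results of these data known. In these lists 0 genes passed the authors' adjusted p in either direction, beside 0.181% of all genes. Median log2 changes of the lists ran from -0.30 in the noncanonical upstream genes to 0.12 in the feedback inhibitors, and Chuk is in both kinase lists. Among other IκB-like genes, Nfkbid, which encodes the nuclear IκB protein IκBNS, stood at 4.08 (Ctrl) and 9.04 (Bub1 cKO) TPM in the authors' deposited table. Nfkbid did not pass (log2 change 0.98, SE 0.52, unadjusted p = 0.024, adjusted p = 0.887 in the authors' deposited table). The sizes of the members' log2 changes run up to that of Relb, -0.75. Nfkbil1, a distant relative with ankyrin repeats, stood at 8.33 TPM in Ctrl against 4.52 TPM in Bub1 cKO (adjusted p = 0.985) by the authors' deposited table.

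**Figure D5:**
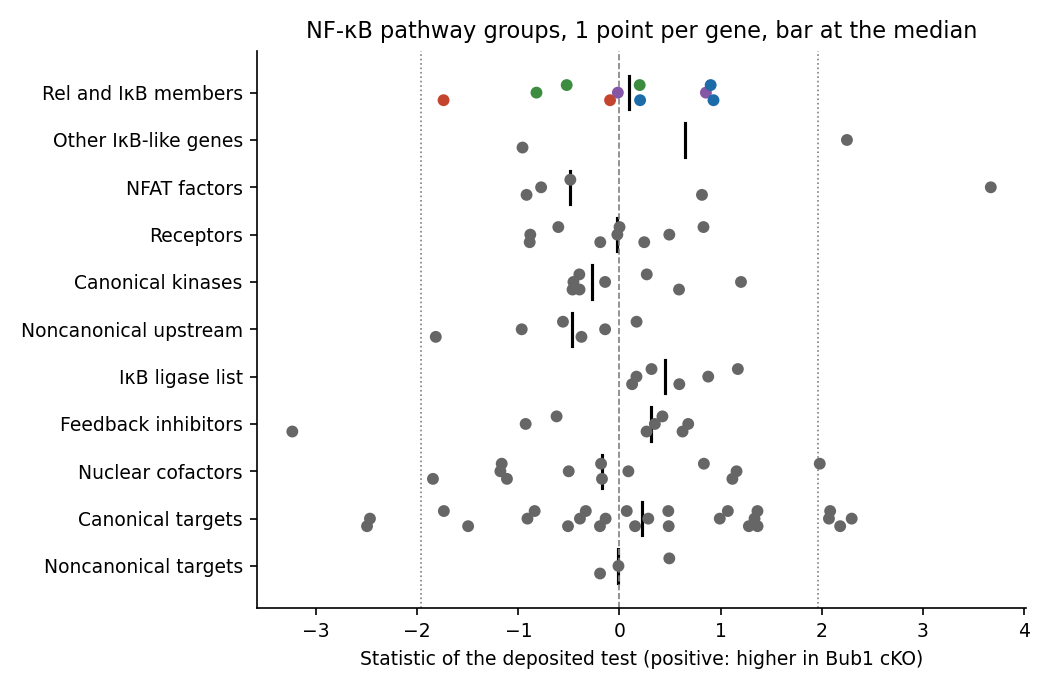
Statistic of the deposited test for each gene of the family and of 10 pathway lists, with a bar at each median. Dotted lines at -1.96 and 1.96 correspond to an unadjusted p of 0.05. Members keep within these lines, and Nfatc1, Cyld and Nfkbid are among the points outside.

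The NFAT factors carry a DNA-binding domain related to that of Rel proteins. Counts at an unadjusted p under 0.05 in these lists stand beside 4.81% of all genes, 2.35% higher and 2.46% lower. Of 5 NFAT genes, 1 reached it: Nfatc1, the master factor of osteoclasts, with 48.7 (Ctrl) and 73.3 (Bub1 cKO) TPM and adjusted p = 0.094 in the authors' deposited table. Receptors that feed the pathway had 0 of 9, beside the same 4.81%. Tnfrsf11a, the RANKL receptor, stood at 50.4 TPM in Ctrl against 56.4 TPM in Bub1 cKO by the authors' deposited table. Its statistic was of the other sign (-0.19). The lymphotoxin receptor Ltbr, an inducer of the noncanonical pathway, stood at 20.3 and 22.3 TPM. Lower in Bub1 cKO by group value were Tnfrsf1a (19.9 and 15.9 TPM) and Tnfrsf1b (13.4 and 11.5 TPM). Canonical kinase genes, among them Ikbkb and Ikbkg of the IκB kinase complex, also had 0 of 8, with a median log2 change of -0.06. Ikbkg stood at 3.33 and 4.39 TPM and Ikbkb at 17.6 TPM in Ctrl against 11.6 TPM in Bub1 cKO by the authors' deposited table, with adjusted p = 0.985 for both.

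Genes upstream in the noncanonical pathway had 0 of 6 at an unadjusted p under 0.05. Their statistic was negative in 5 of 6, beside 50.1% of all genes, and their median log2 change of -0.30 stands beside -0.01 for all genes. The exception, named after its value was seen, was Map3k14, the gene of NIK, with a statistic of 0.17. By group value it was lower in Bub1 cKO (4.23 and 2.15 TPM, log2 change -0.73), so its estimates differ in sign. The list holds both NIK and genes of the complex that degrades NIK, so its median does not measure pathway activity. In the authors' deposited table Birc3, a ligase of the complex that degrades NIK, was level by group value (17.8 and 18.6 TPM) with a statistic of -1.82, so its 2 estimates differ in sign. Birc2 stood at 8.69 and 6.29 TPM and Traf3, the adaptor that brings NIK to this complex, at 5.24 TPM in Ctrl against 4.29 TPM in Bub1 cKO by the authors' deposited table. The list made for the ligase that marks IκB for destruction also holds Fbxw7, an F-box protein of a different ligase. It had 6 of 6 statistics positive, beside 49.9% of all genes, and 0 of 6 at that unadjusted p, with Cul1, the scaffold, listed with 139 and 160 TPM by the authors' deposited table.

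Feedback inhibitors had 1 of 8 lower and 0 higher at an unadjusted p under 0.05, beside 2.46% and 2.35% of all genes. That one was Cyld, a deubiquitinase that limits NF-κB signalling, with adjusted p = 0.277 in the authors' deposited table. Nuclear cofactors, beside the same shares, had 1 of 12 higher and 0 lower, the histone deacetylase gene Hdac1 at 65.1 TPM in Ctrl against 106 TPM in Bub1 cKO (adjusted p = 0.985) by the authors' deposited table. Pdlim2, a ligase that ends RelA activity in the nucleus, stood at 20.3 and 11.5 TPM with an unadjusted p of 0.065 in the authors' deposited table. Canonical target genes had 26 of 28 in the table, 4 of them higher and 2 lower by the same measure, beside 2.35% and 2.46% of all genes, or 6.27% in both directions of the genes of at least 1 TPM. The count describes these libraries, and 0 of the 26 passed the adjusted threshold. The 2 lower ones in the authors' deposited table were Icam1 (log2 change -0.77) and Slfn2 (-0.57). Higher ones were Bcl2l1, a survival gene at 3.23 and 7.50 TPM, Plau, and, chosen after their values were seen, Ccl2 and Vcam1, all short of the adjusted threshold in the authors' deposited table. The estimates for Vcam1 disagree: by group value it was near level in the authors' deposited table, at 1.22 and 1.32 TPM with a log2 change of 0.06, but the test's own change was 2.23 on the log2 scale. Targets of the noncanonical pathway were hardly measured: 3 of 7 are in the table and 0 reach a mean of 1 TPM.

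Markers of the labelled cell type were present in both groups, Csf1r at 116 and 96.7 TPM and Cd68 at 260 TPM in Ctrl against 306 TPM in Bub1 cKO by the authors' deposited table, and marker lists differed between the groups. Of the 29 genes past the adjusted threshold in the authors' deposited table, 4 are markers of these lists: Lyz2 was lower in Bub1 cKO (adjusted p = 0.00033), and Hbb-bs (0.00017), its near-identical copy Hbb-bt (0.025) and Cxcr2 (0.036) were higher. Osteoclast markers, 10 of 10 in the table, summed in the authors' deposited table to 1987 (Ctrl) and 2298 (Bub1 cKO) TPM, and macrophage markers, 9 of 9, to 2625 and 1236 TPM. At an unadjusted p under 0.05 in the authors' test, 2.35% of all genes were higher and 2.46% lower. Beside these shares, 5 of the 10 osteoclast markers were higher and 0 lower. Of the 9 macrophage markers, 4 were lower and 1, Cd68, higher. Neutrophil markers had 4 of 10 higher and erythroid markers 4 of 5, with 0 lower in both lists. When Lyz2 was left out, the macrophage values of the authors' deposited table summed to 485 and 474 TPM, a level sum that holds the higher Cd68. Of those 8 markers, 6 had negative statistics, with Csf1r (unadjusted p = 0.018), Itgam (0.034) and Mrc1 (0.034) lower in the authors' deposited table, and the median log2 change of all 9 was -0.41. Neutrophil markers, 10 of 11 in the table, summed to 95.8 (Ctrl) and 233 (Bub1 cKO) TPM in the authors' deposited table. Most of that sum was S100a8 (41.9 and 92.8 TPM) and S100a9 (38.0 and 115 TPM). Ltf was lower by group value in Bub1 cKO (12.3 and 6.74 TPM), though the statistics of all 10 were positive. Elane, Camp and Retnlg were at 0 in Ctrl and low in Bub1 cKO (1.52, 0.508 and 0.283 TPM). Erythroid markers, 5 of 6, summed to 19.6 and 358 TPM, with Alas2 at 0 in Ctrl, in the authors' deposited table. Lymphoid markers, 2 of 5, summed to 0.832 and 0.256 TPM and stromal markers, 3 of 3, to 2.07 and 2.63 TPM in the authors' deposited table. Rel and IκB genes are expressed in many of these cell types, and the part of cell mixture in their values was not tested. Bub1, the targeted gene, stood at 6.73 TPM in Ctrl against 5.32 TPM in Bub1 cKO (adjusted p = 0.985) by the authors' deposited table, and tags outside the deleted part would still count, so this does not check the labels.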

How the data were processed

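RNA-seq of 6 mouse BMM libraries (3 Ctrl, 3 Bub1 cKO) was deposited as 1 table. A QuantSeq 3' kit and 25 ng of RNA per library were used, per the labels' protocols. Per the file header the authors used the RaNA-seq web service; the aligner, build, annotation and test are not stated there. The authors deposited group values without a unit, read here as TPM scaled by the authors to a common total, because they sum to 999891 (Ctrl) and 999954 (Bub1 cKO), and because the standard error at a like value falls with transcript length. The deposited log2 change equals that of the group values with a pseudocount of 1 within 0.002 in every gene. Statistic and standard error are scores from the authors' test, as deposited, and each deposited p-value is the 2-sided normal tail of the statistic within 0.001 in 15974 genes and in all 10 members. The authors' adjusted p over the whole table, under 0.05, is the call.

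The design assumed values per library if present. The table holds 1 value per group, so no model was fitted. Calculations used Python 3.11.15, pandas 2.3.3 and scipy 1.17.1. Where p was adjusted again, the Benjamini-Hochberg step was tested on simulated statistics. The members and lists were chosen with earlier results of these data known. Named genes are the members, Bub1 and up to 4 genes per pathway list with the smallest p among those of at least 1 TPM. Of these, the ones the text needs are named. Gene positions are from GENCODE M21 (GRCm38), in which 15902 of 15982 gene IDs were found, 14614 with the same version, as were 6 of the 10 members.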

Additional observations from a re-analysis of the deposited data

How the results depend on the processing

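When the Benjamini-Hochberg step was repeated on genes with a mean of 1 TPM or more, the smallest adjusted p among members was 0.857. With 5 TPM or more it was 0.742. The count of called members was 0 in both, at an adjusted p under 0.1, and by Benjamini-Yekutieli adjustment. The smallest unadjusted p of a member, 0.082 for Relb, is above the threshold of the call, and adjustment cannot lower it. Neither filter nor the Benjamini-Yekutieli step could therefore have called a member, so these counts do not test the result. At 0.1 only Relb could have been called, and its deposited adjusted p was 0.985. Over the whole table the count of called genes was 29 as deposited, 37 and 38 with these filters on low values, 44 at an adjusted p under 0.1 and 10 by Benjamini-Yekutieli. The log2 changes of the 10 members were recomputed with pseudocounts of 0.1 and 5. They were also taken as the test's own change and after dividing each group by its median. All 40 values stayed within 1 standard error of the deposited ones. Apart from the test's own change, these settings rework the same group values, and most of the standard errors are wide. This count therefore does not test the result either. Across these settings the median ranged from 0.14 to 0.32 for canonical Rel genes, from -0.48 to -0.26 for noncanonical Rel genes, from -0.18 to -0.16 for cytoplasmic IκB genes and from 0.07 to 0.37 for nuclear IκB genes. In 2 members, Nfkb1 and Bcl3, the statistic and the deposited log2 change differ in sign, and 5 members were positive by either. No paired analysis was possible because the deposited columns hold group values and none per library. Leaving out a replicate was not run for the same reason. With sequencing depth unknown, the standard errors set what could be seen: the upper 95% bound of the fold was 1.15 in Nfkbia and 5.48 in Nfkbiz.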
